A study of Mus musculus with 4 samples.

Results

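Cadherins are calcium-dependent adhesion proteins of the cell surface, and 34 of the 24062 genes counted in E13.5 mouse retinas encode a numbered cadherin or nonclustered protocadherin. These members were found by their symbols (*Cdh* or *Pcdh* followed by a number, with *Pcdh11x* included), and the endothelial gene *Cdh5* was left out by the same rule. There were 22 *Cdh* and 12 *Pcdh* genes. The classical cadherins of type I and type II bind like molecules on the neighboring cell and hold the actin cytoskeleton through catenins. Nonclustered protocadherins, chiefly those of the delta group, adhere more weakly and act in sorting and connecting neurons. In the embryonic retina, N-cadherin keeps the neuroepithelium together, while type II cadherins mark subsets of postmitotic neurons.

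RNA was sequenced from 2 wildtype (WT) libraries and 2 libraries of *Nrf1* f/f;Six3-Cre retinas, which the labels call Nrf1-CKO and which are called CKO here. All 4 came from E13.5 embryos on a mixed C57BL/6 and 129 background, and each library was made from pooled retinas of several embryos. In the CKO mice, Six3-Cre removes exon 4 of *Nrf1*, the gene of a transcription factor for mitochondrial biogenesis, in retinal progenitor cells. Six3-Cre first acts in the central retina, so cells of the periphery may keep the gene, and no group with Six3-Cre alone was analysed here. Nothing in the labels says that the 2 libraries of a genotype came from separate litters, so the p values measure the spread between these libraries.

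The libraries held 74577660 to 85933945 reads on genes, and the 34 members took 156547 and 127966 of them in WT and 165867 and 160277 in CKO. *Nrf1* itself had 9052 and 7789 reads in WT and 8594 and 8284 in CKO, a count over the whole gene that could not check the deletion of a single exon. The tissue label held for markers of retinal progenitors, whose 13 genes summed to 8819 and 9511 CPM (read counts scaled to library size with TMM factors) in WT and to 7018 and 7599 CPM in CKO, with 3 called lower. The largest falls in this sum were of *Ccnd1*, from 2658 to 1446 CPM, and *Fgf15*, from 1137 to 701 CPM. The median log2 fold change of the list was -0.10. Markers of other tissues were also present and moved with the genotype. All 13 tested lens genes were called higher, and their list summed to 172 and 488 CPM in WT but 9945 and 4106 CPM in CKO. Of the lists with fewer calls, 3 of 6 amacrine and horizontal cell genes were called lower and 2 higher, 2 of 6 photoreceptor precursor genes were called lower, and 2 of 5 neural crest and 2 of 4 erythroid genes were called higher.

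The question was which of these adhesion genes differed between the genotypes. Calls rest on edgeR's quasi-likelihood test over all genes and need a change of 1.4-fold or more together with an adjusted p no higher than 0.2. Of the 34 members, 32 had enough reads to be tested, and 14 were called, 10 higher and 4 lower in CKO. This is 43.8% of the tested members, against 20.9% of all 15762 tested genes, of which 12.8% were called higher and 8.04% lower. At an adjusted p of at most 0.05 there were 12 called members, beside 15.8% of all tested genes called at that threshold. The median log2 fold change over the 32 members was 0.13, beside 0.00073 over all tested genes. In 26 members both CKO libraries lay beyond both WT libraries, or 81.2%, compared with 62.5% of all tested genes. They were higher in CKO for 16 members and lower for 10, beside 30.9% and 31.6% of all tested genes. The 2 members not tested were *Cdh16* and *Cdh17*, cadherins of kidney and gut. *Cdh16* had 0 reads in every library but CKO replicate 2, which had 2. *Cdh17* had 0 reads in both WT libraries, which allows up to 3 reads, and 13 and 1 in the CKO libraries.

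**Figure D1:**
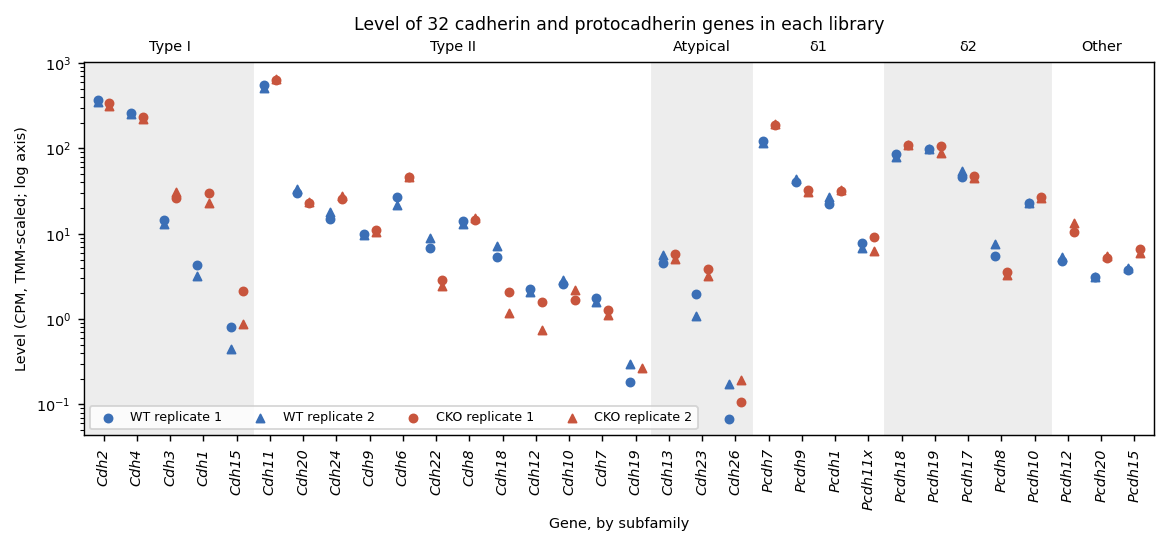
Level of the 32 tested genes in each library, as TMM-scaled CPM on a log axis, by subfamily (δ1 and δ2 are delta-1 and delta-2 protocadherins). Circles are replicate 1 and triangles replicate 2, WT in blue and CKO in red; the CKO replicate 1 value of *Cdh19* is 0 and is not drawn. *Cdh11*, *Cdh2* and *Cdh4* stand highest in all 4 libraries, and *Cdh1* moves furthest from WT to CKO.

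Compared per length of exon, a few genes carried most of the signal. *Cdh11*, which encodes the mesenchymal OB-cadherin, had the highest level in WT, with 59.9 ± 3.31 CPM per kb (SD, n = 2). *Cdh2*, encoding N-cadherin, followed with 44.7 ± 1.97 CPM per kb, and *Cdh4*, encoding the retinal R-cadherin, with 35.1 ± 0.812 CPM per kb. Each of these 3 WT levels was separated from the next by more than its SD. *Pcdh18* and *Pcdh7* came next, at 15.3 ± 0.792 and 11.3 ± 0.309 CPM per kb, so that 5 members reached 10 CPM per kb in WT. A further 14 members lay between 1 and 10 CPM per kb, and 15 lay below 1 CPM per kb.

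The order at the top was the same in CKO, but the shares differed. *Cdh11*, *Cdh2* and *Cdh4* together made up 63.8% and 61.8% of the summed level per kb of the 34 members in the WT libraries, and 58.0% in each CKO library. *Cdh2* went from 20.1% to 16.4% and *Cdh4* from 15.8% to 12.6% in the mean over the libraries of a genotype, while *Cdh11* went from 26.9% to 29.0%. The share of *Cdh1* rose from 0.365% to 2.32%, which moved it from rank 21 to rank 10. In terms of single libraries, the level of *Cdh2* per kb was 49.3 and 62.6 times that of *Cdh1* in WT, but 6.41 and 7.91 times in CKO.

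**Figure D2:**
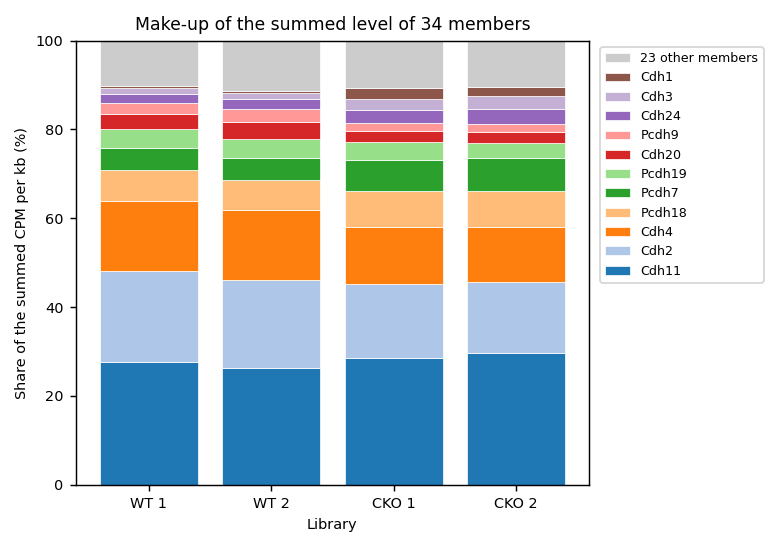
Share of each gene in the summed CPM per kb of exon of all 34 members, in percent, with 1 bar per library. From the bottom, *Cdh11*, *Cdh2* and *Cdh4* fill 61.8% to 63.8% of the WT bars and 58.0% of the CKO bars, and the segment of *Cdh1* is 0.415% and 0.316% in WT and 2.60% and 2.04% in CKO.

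Of the type I classical cadherins, 3 of 5 were called higher and none lower. *Cdh1*, on chromosome 8 of GRCm38 from 106603351 to 106670246, encodes E-cadherin, the cadherin of epithelial junctions. It had 375 and 235 reads in WT and 2494 and 1891 in CKO. Both CKO libraries thus lay far above both WT libraries. The level went from 3.73 ± 0.787 to 26.4 ± 5.07 CPM (SD, n = 2), a 7.10-fold rise and the largest change of any tested member, with a log2 fold change of 2.82 ± 0.19 (SE, adjusted p = 7.88e-05, edgeR). It was 1.82 with limma on the normalized values that the authors deposited, and still called. *Cdh3*, which lies 46.1 kb upstream of *Cdh1* from 106510891 to 106557297, encodes P-cadherin, a cadherin of pigment epithelium. Its reads numbered 1261 and 963 in WT and 2189 and 2549 in CKO. The level rose 2.09-fold, from 13.7 ± 1.00 to 28.6 ± 3.15 CPM (1.06 ± 0.12 on the log2 scale, SE, with an adjusted p of 0.000397 from edgeR).

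*Cdh15*, encoding the M-cadherin of muscle, was called on few reads, 71 and 33 in WT against 178 and 72 in CKO. The groups did not overlap after scaling, but the log2 fold change of 1.25 had a standard error of 0.53 (adjusted p = 0.13 from edgeR). It was 0.47 and not called without CKO replicate 1, and 0.89 and not called without WT replicate 2. It was 1.76 without CKO replicate 2 or without WT replicate 1, and 0.31 and not called with limma on the deposited values. The abundant type I genes were not called. *Cdh2* had 32594 and 25939 reads in WT and 28170 and 26383 in CKO, with a log2 fold change of -0.13 ± 0.08 (SE, adjusted p = 0.286, edgeR). *Cdh4* had 22662 and 18575 reads in WT and 19609 and 18156 in CKO, and its log2 fold change was -0.16 ± 0.08 (SE, adjusted p = 0.189, edgeR), which is under 1.4-fold. For both genes, the CKO libraries lay below the WT libraries after scaling.

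Markers of other epithelia moved with *Cdh1* and *Cdh3*. Lens genes were higher as given above, and their sum was higher in WT replicate 2 than in WT replicate 1, whereas *Cdh1* was lower in WT replicate 2, at 3.17 against 4.28 CPM. In CKO, the lens sum and *Cdh1* were both higher in replicate 1, where *Cdh1* stood at 30.0 CPM against 22.9 in replicate 2. Pigment epithelium genes summed to 209 and 149 CPM in WT and to 379 and 402 CPM in CKO, with 5 of 8 tested genes called higher, among them *Tyrp1* and *Pmel*, and *Rpe65* near 0 in all libraries. All 6 genes of the ciliary margin were called higher, and their sums were 186 and 176 CPM in WT and 412 and 367 CPM in CKO. *Cdh3*, at 14.4 and 13.0 CPM in WT and 26.3 and 30.8 CPM in CKO, had the same order of libraries as the sum of the pigment epithelium genes and that of the macrophage genes, which is given below with *Pcdh12*. *Cdh1* had the order of the ciliary margin sum and of the mesenchyme sum, which is given with *Cdh11*. Where the genotypes do not overlap, only a few orders of libraries are possible, so a shared order alone cannot link a gene to a cell type. The part of any of these tissues in the rise of *Cdh1* and *Cdh3* was not tested.

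**Figure D3:**
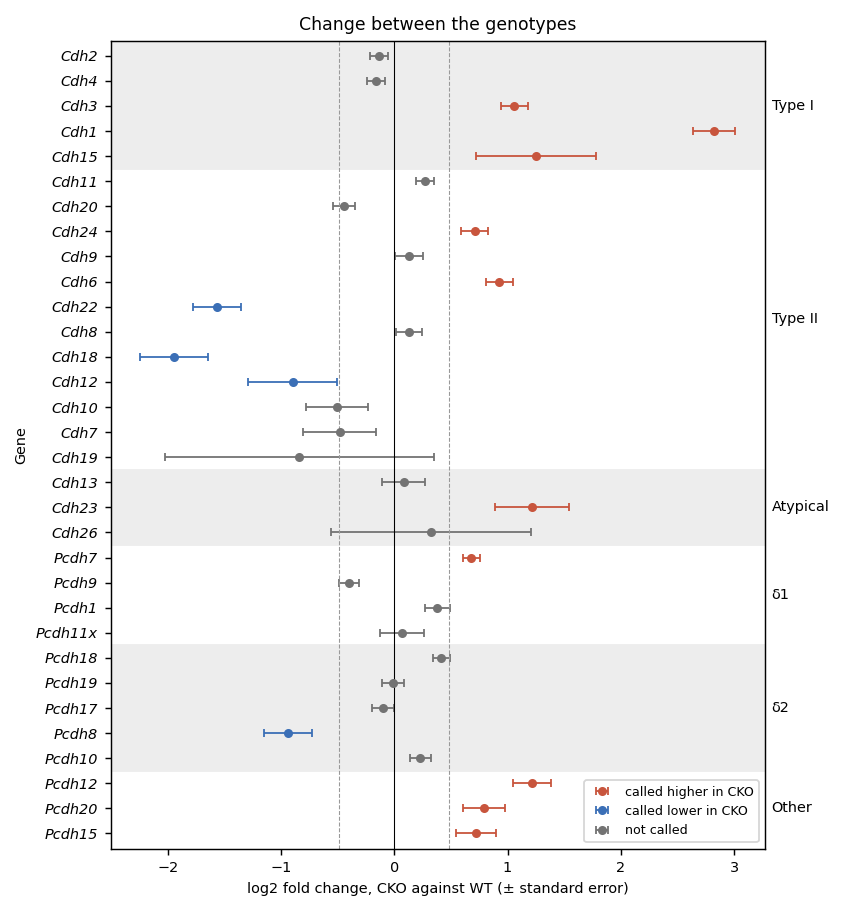
log2 fold change of CKO against WT for the 32 tested genes, by subfamily and WT level. Points are edgeR estimates with their standard errors, red for called higher, blue for called lower and gray for not called, and dashed lines mark 1.4-fold. *Cdh1* stands at 2.82 on the right and *Cdh18* at -1.94 on the left.

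The type II classical cadherins split in both directions, with 3 of 12 called lower and 2 called higher. *Cdh18*, a cadherin of the nervous system on chromosome 15 from 22549022 to 23474418, had 471 and 541 reads in WT and 175 and 98 in CKO. It fell to 26.0% of the WT level, from 6.34 ± 1.35 to 1.65 ± 0.652 CPM (SD, n = 2), and the log2 fold change was -1.94 ± 0.30 (SE, adjusted p = 0.00201, edgeR). This was the largest decrease of a called member. *Cdh22*, which encodes a cadherin of brain and pituitary, lies on chromosome 2 from 165111507 to 165234853. It had 590 and 671 reads in WT and 242 and 200 in CKO. Its level fell to 33.8% of WT, from 7.89 ± 1.63 to 2.67 ± 0.351 CPM (-1.56 ± 0.21 on the log2 scale, SE, with an adjusted p of 0.00102 from edgeR). For both genes every CKO library had less than the lower WT library. With limma on the deposited normalized values they remained called lower, at -0.86 for *Cdh18* and -0.78 for *Cdh22* on the log2 scale.

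*Cdh12*, the third type II gene called lower, had 199 and 153 reads in WT and 131 and 62 in CKO. Its log2 fold change was -0.90 ± 0.39 (SE, adjusted p = 0.141, edgeR). It was not called when WT replicate 1, WT replicate 2 or CKO replicate 2 was left out, and its value was then -0.82, -0.96 and -0.46. It was -1.53 without CKO replicate 1, and -0.30 and not called with limma on the deposited values. *Cdh12* and *Cdh18* are neighbors on chromosome 15, 959 kb apart. The next members on that chromosome are *Cdh10* and *Cdh9*, and they were not called. *Cdh10* had 225 and 216 reads in WT and 139 and 181 in CKO, with a log2 fold change of -0.50 (adjusted p = 0.233 from edgeR), and without CKO replicate 2 it was -0.71 and called lower. *Cdh9*, which is known from bipolar cell wiring, had 873 and 714 reads in WT and 916 and 862 in CKO, and its log2 fold change was 0.13 (adjusted p = 0.525 from edgeR).

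Markers of retinal ganglion cells (RGCs), the first neurons that the retina forms, were lower in the same libraries. Of 14 RGC genes 13 were called lower (median log2 value -1.70), and their sums were 3318 and 3771 CPM in WT and 1430 and 1156 CPM in CKO. *Cdh18* and *Cdh22* had the same order of libraries as this sum, with WT replicate 2 highest and CKO replicate 2 lowest. *Cdh12*, in contrast, was higher in WT replicate 1, at 2.27 against 2.06 CPM. As said above, a shared order alone cannot link a gene to a cell type. In bulk tissue, fewer cells of a type and less RNA per cell cannot be told apart, and the part of RGC number in these decreases was not tested.

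The type II genes called higher were *Cdh6* and *Cdh24*. *Cdh6*, on chromosome 15 from 13028701 to 13173675, encodes K-cadherin, which labels some RGC types later in life and is also found in kidney and mesenchyme. It had 2374 and 1593 reads in WT and 3881 and 3793 in CKO. The level rose 1.91-fold, from 24.3 ± 3.98 to 46.3 ± 0.616 CPM (0.93 ± 0.12 on the log2 scale, SE, with an adjusted p of 0.000675 from edgeR). Genes of periocular mesenchyme were also higher in CKO, as given below with *Cdh11*, and their part in the rise of *Cdh6* was not tested. *Cdh24*, on chromosome 14 from 54631231 to 54641364, had 1318 and 1330 reads in WT and 2150 and 2319 in CKO. It rose 1.63-fold, from 16.5 ± 2.04 to 27.0 ± 1.52 CPM (0.71 ± 0.12 on the log2 scale, SE, with an adjusted p of 0.00286 from edgeR). No library of WT reached a CKO library for either gene.

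The differences of the other type II genes were smaller or rested on few reads. *Cdh11* had 48560 and 38033 reads in WT and 53159 and 53447 in CKO, a log2 fold change of 0.27 ± 0.08 (SE, adjusted p = 0.043, edgeR), below the limit of 1.4-fold. Genes of pericytes and periocular mesenchyme, tissues in which *Cdh11* is typically abundant, summed to 297 and 209 CPM in WT and 430 and 379 CPM in CKO, and 7 of 12 were called higher. *Cdh11* by itself stood above this sum in every library, at 554 and 513 CPM in WT and 640 and 646 CPM in CKO. The part of these tissues in the level of *Cdh11* was not tested. *Cdh20* had 2626 and 2492 reads in WT and 1933 and 1940 in CKO, a log2 fold change of -0.44 ± 0.10 (SE, adjusted p = 0.0114, edgeR), also below the limit. Without WT replicate 1 it was -0.52 and called lower. *Cdh8* had 1223 and 971 reads in WT and 1196 and 1254 in CKO, with a log2 fold change of 0.13 (adjusted p = 0.486 from edgeR). *Cdh7* was low throughout, with 93 to 153 reads, and *Cdh19*, a cadherin of Schwann cell precursors, had 0 to 22 reads, with 0 in CKO replicate 1 and 22 in CKO replicate 2. Its log2 fold change of -0.84 was not called (adjusted p = 0.672 from edgeR), and leaving out CKO replicate 2 made it a call on a single CKO library with 0 reads.

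Among the atypical cadherins, only *Cdh23* was called of the 3 tested. *Cdh23* and *Pcdh15* encode the partners that form the tip link of hair cells in the inner ear, and both are known from photoreceptors. *Cdh23*, on chromosome 10 from 60302748 to 60696490, had 172 and 80 reads in WT and 320 and 268 in CKO (1.21 ± 0.32 on the log2 scale, SE, with an adjusted p of 0.0272 from edgeR). With limma on the deposited values it was 0.48 and not called. *Pcdh15*, 12403 kb away on the same chromosome, had 328 and 295 reads in WT and 557 and 498 in CKO (0.72 ± 0.18 on the log2 scale, SE, with an adjusted p of 0.0179 from edgeR). *Pcdh15* was 0.37 and not called with limma on the deposited values, and it was not called by glmTreat, edgeR's test against 1.4-fold itself. The levels of the partners were low in WT, with 0.0898 and 0.162 CPM per kb, which are among the lowest of the tested members. *Cdh13*, encoding T-cadherin, which lacks a cytoplasmic domain, had 397 and 424 reads in WT and 485 and 414 in CKO. Its groups overlapped, and its log2 fold change was 0.08 (adjusted p = 0.807 from edgeR). *Cdh26* had 6 to 16 reads, and no difference was detectable at this depth (adjusted p = 0.837 from edgeR).

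Of the 4 delta-1 protocadherins, *Pcdh7* was called higher. It lies on chromosome 5 from 57717967 to 58133230, and had 10651 and 8677 reads in WT and 15768 and 15893 in CKO. The level rose 1.60-fold, from 119 ± 3.28 to 191 ± 1.62 CPM (SD, n = 2), and the log2 fold change was 0.68 ± 0.07 (SE, adjusted p = 0.000352, edgeR). The standard error was the smallest of any member, and leaving out any single library gave 0.65 to 0.71. A transcript on the opposite strand, *4932441J04Rik*, shares 21.1% of the exon bases of *Pcdh7* and was counted with 19 to 23 reads. Whether the counting used strand is not given in the sources used here, and by default HTSeq without strand leaves out reads on bases that both genes share. *Pcdh1* had 1955 and 2000 reads in WT and 2640 and 2679 in CKO, with a log2 fold change of 0.38 ± 0.11 (SE, adjusted p = 0.037, edgeR), below 1.4-fold. Without WT replicate 2 it was 0.53 and called higher. *Pcdh9* differed in the other direction, with 3515 and 3255 reads in WT and 2702 and 2588 in CKO, a log2 fold change of -0.40 ± 0.09 (SE, adjusted p = 0.0116, edgeR) that was again below the limit. *Pcdh11x*, on the X chromosome, had 511 to 753 reads, and its groups overlapped.

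In the delta-2 protocadherins, 1 of 5 was called, and it was lower. *Pcdh8*, on chromosome 14 from 79766775 to 79771312, encodes paraxial protocadherin, which controls cell movement in the early embryo and is made in neurons. It had 480 and 570 reads in WT and 294 and 275 in CKO. The level fell to 52.1% of WT, from 6.58 ± 1.56 to 3.43 ± 0.152 CPM, and the log2 fold change was -0.94 ± 0.21 (SE, adjusted p = 0.0124, edgeR). With limma on the deposited values it was -0.47 and not called. *Pcdh8* had the same order of libraries as the sum of the RGC markers given above, whose part in this decrease was not tested. *Pcdh18*, the most abundant protocadherin per kb in this retina, had 7469 and 5880 reads in WT and 9221 and 8989 in CKO (0.42 ± 0.08 on the log2 scale, SE, with an adjusted p of 0.00517 from edgeR), less than 1.4-fold. *Pcdh10* had 1988 and 1688 reads in WT and 2268 and 2152 in CKO, with a log2 fold change of 0.23 (adjusted p = 0.119 from edgeR).

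The other delta-2 genes had overlapping groups. *Pcdh17* had 4024 and 4020 reads in WT and 3978 and 3759 in CKO, with a log2 fold change of -0.10 (adjusted p = 0.506 from edgeR). *Pcdh19*, an X-linked gene known from epilepsy, had 8592 and 7327 reads in WT and 8889 and 7347 in CKO, with a log2 fold change of -0.0080 (adjusted p = 0.965 from edgeR). On chromosome 14 the protocadherin genes *Pcdh8*, *Pcdh17*, *Pcdh20* and *Pcdh9* follow each other with gaps of 3926 to 4672 kb, and their log2 fold changes of -0.94, -0.10, 0.79 and -0.40 did not share a direction.

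The remaining protocadherins, *Pcdh12*, *Pcdh15* and *Pcdh20*, were all called higher. *Pcdh12*, on chromosome 18 from 38267089 to 38284402, encodes a protocadherin of endothelial cells. It had 425 and 396 reads in WT and 865 and 1095 in CKO. The level rose 2.32-fold, from 5.10 ± 0.344 to 11.8 ± 2.0 CPM (SD, n = 2), and the log2 fold change was 1.21 ± 0.17 (SE, adjusted p = 0.00106, edgeR). With limma on the deposited values it was 0.73 and still called. *Cdh5*, the endothelial cadherin that the rule leaves out, had 2242 and 1719 reads in WT and 4915 and 4425 in CKO, and its log2 fold change was also 1.21 ± 0.09 (SE, adjusted p = 0.000104, edgeR). Of the 11 endothelial markers, *Cdh5* included, 9 were called higher, *Cldn5* was not called, and *Kdr*, which retinal progenitors also express, was called lower. Their sums were 298 and 300 CPM in WT and 340 and 338 CPM in CKO. *Kdr* made up 200 and 211 CPM of the WT sums, and the other 10 genes summed to 98.8 and 88.7 CPM in WT and 197 and 201 CPM in CKO, a ratio of 2.12. Macrophage and microglia genes, with all 10 called higher, summed to 84.2 and 77.1 CPM in WT and 257 and 314 CPM in CKO. *Pcdh12* was higher in replicate 2 of both genotypes, at 4.85 and 5.34 CPM in WT and 10.4 and 13.2 CPM in CKO. *Cdh5* was higher in replicate 1 of both, at 25.6 and 23.2 CPM in WT and 59.2 and 53.5 CPM in CKO. The part of vessel cells in the rise of *Pcdh12* was not tested. *Pcdh20*, on chromosome 14 from 88464743 to 88471396, had 276 and 231 reads in WT and 438 and 460 in CKO (0.79 ± 0.19 on the log2 scale, SE, with an adjusted p of 0.0159 from edgeR). With limma on the deposited values it was 0.38 and not called.

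**Figure D4:**
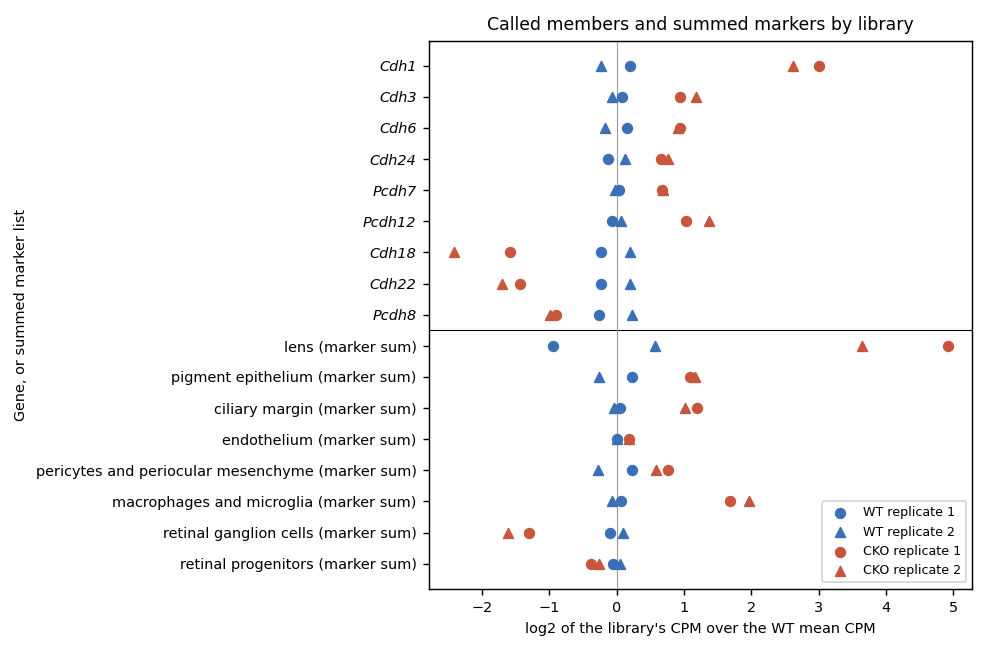
Each library's CPM divided by the mean of the WT libraries, on a log2 axis, for 9 called genes above the line and for summed marker lists below it. Circles are replicate 1 and triangles replicate 2, WT in blue and CKO in red. The lens sum spreads most, with 4.91 and 3.64 in CKO, *Cdh1* follows with 3.01 and 2.62, and *Cdh18* and *Cdh22* lie on the left with the RGC sum.

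The molecules that work with cadherins were read from 6 lists, of which 42 genes were tested, and 6 were called lower and 9 higher. These are 14.3% and 21.4% of the tested genes of the lists, beside 8.04% and 12.8% of all tested genes. The count called higher was 2 with glmTreat and 3 with limma on the deposited values. Most catenins, which join cadherins to actin, were not called. *Ctnnb1*, encoding beta-catenin, went from 1457 to 1459 CPM, and the log2 fold changes of *Ctnna1* and *Ctnnd1* were -0.01 and 0.07. *Jup*, encoding plakoglobin, had -0.44 (adjusted p = 0.0032 from edgeR) and *Ctnnd2* -0.24 (adjusted p = 0.115 from edgeR), both below 1.4-fold, and in both the CKO libraries lay below the WT libraries. *Pkp4*, encoding a p120-related catenin, had 0.27 (adjusted p = 0.0489 from edgeR), with the CKO libraries above the WT libraries. Of the 11 tested genes of this list, 2 were called lower and 1 higher. *Ctnna2*, the alpha-catenin of neurons, fell from 112 to 49.7 CPM (log2 fold change -1.17, adjusted p = 9.88e-05 from edgeR), and *Cyfip2*, a partner of delta-2 protocadherins in the control of actin, fell with a log2 fold change of -0.51. *Vcl*, encoding vinculin, which binds catenin under tension, rose from 66.6 to 124 CPM (log2 fold change 0.89, adjusted p = 0.000267 from edgeR).

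Larger cadherins also moved in both directions. Of 9 tested Fat, Dachsous and Celsr genes, *Celsr3*, needed for axon tracts, was called lower with a log2 fold change of -1.32, while *Fat1* and *Celsr1* were called higher with 0.56 and 0.51. Of 5 tested calsyntenin and cadherin-related genes, *Ret*, a receptor with cadherin-like repeats, fell from 95.2 to 21.0 CPM, a log2 fold change of -2.18. *Cdhr1*, a photoreceptor gene, fell with -1.12, and *Clstn2* rose with 0.61. The desmosomal cadherins *Dsc2* and *Dsg2* rose from low levels, with log2 fold changes of 0.83 and 1.06, and were 2 of the 4 tested genes of their list. Of 8 tested nectin and nectin-like genes, *Cadm3* was called lower with -0.91, and *Cadm2* and *Pvrl4* (nectin-4) were called higher with 0.62 and 1.02. Of the 5 proteases that can shed cadherins, *Adam15* was called higher with 0.64, and *Adam10*, the main sheddase, had -0.18 and was not called. Markers of RGCs were lower in the same libraries, and those of lens, mesenchyme and macrophages were higher, as given above. Their part in the changes of these partners of cadherins was not tested.

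The promoter windows of the members were read on both strands for the core of the NRF1 binding sequence. A window covers 250 bases before and 50 bases after the start site in RefSeq's annotation of GRCm38. Windows were found for 22 of the 34 members and none held the core (0 of 22), compared with 5.19% of the 27025 genes with a window. The 22 comprise 7 members called higher, 4 called lower and 11 not called. The others are *Cdh1*, *Cdh2*, *Cdh3*, *Cdh4*, *Cdh11*, *Cdh13*, *Cdh16*, *Cdh17*, *Cdh19*, *Pcdh1*, *Pcdh11x* and *Pcdh12*. The search says only that these letters are not in these windows.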

How the data were processed

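RNA of pooled E13.5 retinas was sequenced by the authors on an Illumina HiSeq, aligned to mm10 (the same assembly as GRCm38) with TopHat and counted per gene with HTSeq. The authors deposited these whole-number counts, and also normalized log2 values. The submitters' processing notes name DESeq and limma, but which of them made these values is not given in the sources used here. In both tables the header has more fields than the rows, and the 4 values of a row were read in the order of the names (Mut1, Mut2, Ctrl1 and Ctrl2). Summary rows of HTSeq, 74.0% to 75.0% of all entries, were left out of library sizes.

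Genes were filtered with filterByExpr (minimum count of 10), scaled with TMM and tested in edgeR 4.0.16 (R 4.3.3) by quasi-likelihood, without a block, and p values were adjusted over all 15762 tested genes by Benjamini-Hochberg. The thresholds of 1.4-fold and 0.2 are those of the study, which tested differences with the program Cuffdiff. Here they were applied to edgeR results, so the counts of called genes are not comparable with those of the study. The F statistic and the size of the change gave the standard error (SE). CPM per kb uses the exon length in GENCODE M21, which may differ from the annotation used for counting, and coordinates are from the same release. Libraries of a genotype differed by more than sampling noise. All members were described, named with values where called or at a mean of at least 10 CPM. Members and lists (12 of cell type markers and 6 of cadherin partners) were chosen with earlier results of these data known. DESeq2 1.42.0, limma 3.58.1 on the deposited values and the other alternatives are given at the end. Depth limits precision for genes under about 100 reads, and PCR copies are not independent molecules, so errors cover counting and the spread between 2 libraries only.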

Additional observations from a re-analysis of the deposited data

How the results depend on the processing

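Of the 14 called members, *Cdh1*, *Cdh3*, *Cdh6*, *Cdh18*, *Cdh22*, *Cdh24*, *Pcdh7* and *Pcdh12* were called in each of the 14 alternatives. With limma on the deposited normalized values, 2 members were called lower (*Cdh18* and *Cdh22*) and 6 higher, and 3 partner genes were called higher instead of 9. The values of *Cdh12*, *Cdh15*, *Cdh23*, *Pcdh8*, *Pcdh15* and *Pcdh20* were then -0.30, 0.31, 0.48, -0.47, 0.37 and 0.38 on the log2 scale, below 1.4-fold. The called members that kept their call with limma had smaller values. *Cdh1* had 1.82 instead of 2.82, *Cdh18* -0.86 instead of -1.94 and *Cdh22* -0.78 instead of -1.56. Members with many reads changed little, such as *Pcdh7* with 0.65 instead of 0.68 and *Cdh11* with 0.27 in both. The limit of 1.4-fold was thus harder to reach on this scale for members with few reads. With glmTreat, which tests against 1.4-fold itself, *Cdh12*, *Cdh15* and *Pcdh15* were not called, and 2 partner genes were called higher. Over all genes, limma called 723 lower and 945 higher, and glmTreat 743 and 1188, compared with 1268 and 2024. At an adjusted p of 0.05, *Cdh12* and *Cdh15* were not called. The median log2 fold change of the members was 0.11 with scaling by library size only, 0.17 with upper-quartile scaling, 0.067 with limma, and 0.16 to 0.18 when a library was left out. *Pcdh19* turned to 0.0086 with a mean count of at least 100 and to 0.032 with upper-quartile scaling, which moved the median of all genes from 0.00073 to 0.04. Leaving out single libraries gave -0.15 to 0.12 for *Pcdh19*, -0.21 to 0.026 for *Pcdh17*, -0.22 to 0.31 for *Pcdh11x*, -0.073 to 0.26 for *Cdh13*, -0.21 to 1.13 for *Cdh26* and -7.29 to 0.16 for *Cdh19*, so these genes, which were not called, have no stable direction. The calls of *Cdh12* and *Cdh15* were lost, and *Cdh10*, *Cdh19*, *Cdh20* and *Pcdh1* gained one, without single libraries, where the lone library of a genotype is assumed to vary like the others. The cause of these changes was not tested. Same-numbered libraries showed no shared deviation (correlation of -0.0025), which cannot tell whether they were prepared in pairs. With the replicate number as a block, 4 members were called lower and 10 higher, as without it. DESeq2, no filter on low counts, and scaling without markers of other tissues changed no call of a member.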

Other observations

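The clustered protocadherins, which the choice by numbered symbols leaves out, were examined after the values of the members were seen. Of 11 tested genes of the *Pcdha* cluster, 7 were called lower and none higher by edgeR's quasi-likelihood test, with a median log2 fold change of -1.23. Over all tested genes, 8.04% were called lower and 12.8% higher. Of 21 tested genes of the *Pcdhb* cluster, 15 were called lower and none higher, with a median of -0.88. In contrast, of 22 tested genes of the *Pcdhg* cluster none was called lower and 1 was called higher, with a median of -0.03. Genes of the *Pcdha* and *Pcdhg* clusters share constant exons, and HTSeq does not assign reads that fall on exons of several genes, so their counts rest on the variable exons and are uncertain. Markers of retinal ganglion cells were lower in the same libraries, 13 of 14 genes with a median log2 value of -1.70, and their part in these decreases was not tested.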
